A study of Homo sapiens with 26 samples.

Results

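The 37 genes described here serve the folding and secretion of proteins in the endoplasmic reticulum. They were taken as a list of names, drawn up with earlier results of these data known, and all 37 were found among the 58592 genes measured. By role, 11 are chaperones and their partners, 9 act in oxidative folding, 9 in endoplasmic reticulum-associated degradation, 5 in translocation into the organelle and 3 are stress sensors. RNA was sequenced from OCI-Ly7 and SUDHL4 (SU-DHL-4), established human lymphoma lines of germinal centre B cell origin. All cells, the controls included, carried a lentiviral dCas9-BFP-KRAB fusion driven by the SFFV promoter, a tool that represses transcription where a guide RNA directs it. The guides were directed against POU2F2 (the factor OCT2), against POU2AF1 (its coactivator OCA-B) or, in the controls, against no target. OCI-Ly7 was grown in IMDM with serum and SUDHL4 in RPMI with serum. In OCI-Ly7 there were 4 control libraries, 6 of POU2AF1 knockdown and 8 of POU2F2 knockdown. SUDHL4 had 1 control library, 1 of POU2AF1 knockdown and 2 of POU2F2 knockdown, after files that repeated the same library had been merged. The labels give a batch for each library: 1 OCI-Ly7 control, 4 POU2AF1 knockdown libraries of OCI-Ly7 and all of SUDHL4 belong to batch 1, and the remaining libraries to batch 2. Within batch 2 most labels also carry a mark from s0 to s3, called the series mark here, whose meaning the labels do not give. A label of 48 h stands on POU2F2 knockdown replicate 3, on POU2AF1 knockdown replicate 3 and on OCI-Ly7 control file 3. That control file was left out, as it equalled the sum of control files 1 and 2.

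A protein destined for secretion or for the cell surface enters the endoplasmic reticulum through the SEC61 channel, is held by chaperones such as BiP (HSPA5), and is closed by disulfide isomerases. Proteins that fail to fold are drawn back to the cytosol and degraded through a membrane complex around SEL1L and the ubiquitin ligase HRD1 (SYVN1). When unfolded protein accumulates, the sensors IRE1 (ERN1), ATF6 and PERK start the unfolded protein response, in which IRE1 splices XBP1 messenger RNA and the factors XBP1 and ATF6 switch on many of these genes. In B cells the pathway is best known from plasma cells, which secrete antibody in bulk, while germinal centre B cells carry most of their antibody on the surface.

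Libraries held 26764630 to 60154198 estimated reads. The share of reads on mitochondrial genes was 6.95% to 13.9%, except in 1 library, OCI-Ly7 POU2AF1 knockdown replicate 1, where it was 25.5%. POU2AF1 stood at 448 to 479 CPM (read counts scaled to library size, with TMM normalisation within each line) in the OCI-Ly7 controls and at 27.8 to 89.5 CPM under its knockdown (Benjamini-Hochberg adjusted p = 1.97e-07, edgeR). POU2F2 stood at 211 to 409.5 CPM in the controls and at 56.5 to 90.4 CPM under its knockdown, save for a higher value in the 48 h library. Its log2 difference of -1.57 did not pass the test with a term for batch (adjusted p = 0.0559, edgeR) and passed with the series mark as a block (-1.73, adjusted p = 0.00218, edgeR). No knockdown library reached the lowest control. In SUDHL4 POU2AF1 went from 405.5 to 74.1 CPM and POU2F2 from 303 to 40.6 and 52.1 CPM. All 6 listed B cell markers and all 6 listed germinal centre markers were detected. The summed level of 8 T and NK cell markers stayed at or below 3.27 TPM (the level scaled for transcript length and library size), with 7 of 8 below 1 TPM, and that of 8 myeloid markers at or below 6.09 TPM.

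The promoters of several members hold the sequence elements through which ATF6 and XBP1 are known to act, and they are shown here because the 9 members with an ERSE or ERSE-II were all lower in 1 comparison of libraries described further on. Windows of 250 bases before to 50 bases after the start site (RefSeq, build GRCh38.p14) were found for 34 of the 37 members and searched on both strands. The endoplasmic reticulum stress response element (ERSE, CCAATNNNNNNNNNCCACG) was present in windows of 6 of the 34, or 17.6%, against 0.0769% of 35116 windows of all genes. ERSE-II (ATTGG and CCACG with any 1 base between) was present for 3, or 8.82%, against 0.0541%. The XBP1 element TGACGTGG was present for 4 (HYOU1, SSR3, TXNDC11 and TXNDC5), or 11.8%, against 0.729%, and in HYOU1 it overlaps the farther ERSE-II. The octamer ATGCAAAT, the letters that OCT factors are known to bind, was in none of these windows, against 1.77% of all windows. The members' shares count genes (34, with 44 windows), and the shares beside them count windows. The members were listed as genes of this pathway, so these shares are a description and no test. The ERSE and ERSE-II elements are printed along the gene's own strand with 10 bases on each side, the element in capitals. Those of CALR, CRELD2, SDF2L1, HYOU1 and the nearer copy of HSP90B1 match on the opposite strand and appear as the reverse complement of the letters above.
HSPA5: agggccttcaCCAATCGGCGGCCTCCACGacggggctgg
HSP90B1, farther copy: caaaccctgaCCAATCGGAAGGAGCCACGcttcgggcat
HSP90B1, nearer copy: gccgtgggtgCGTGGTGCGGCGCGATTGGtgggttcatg
CALR: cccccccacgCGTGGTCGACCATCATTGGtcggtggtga
CANX: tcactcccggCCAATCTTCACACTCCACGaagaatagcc
CRELD2: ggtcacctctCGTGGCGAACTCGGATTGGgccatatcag
PDIA6: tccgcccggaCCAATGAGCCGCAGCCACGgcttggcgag
SDF2L1, ERSE-II: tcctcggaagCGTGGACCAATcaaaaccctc
HERPUD1, ERSE-II: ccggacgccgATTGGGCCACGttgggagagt
HYOU1, ERSE-II, nearer copy: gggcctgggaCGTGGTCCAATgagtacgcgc
HYOU1, ERSE-II, farther copy: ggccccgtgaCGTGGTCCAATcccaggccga
The HSPA5 element lies at chr9:125241391-125241409, from base -66 to base -48 counted from the start site, and matches on the gene's own (minus) strand. The SDF2L1 element lies at chr22:21642114-21642124, from base -188 to base -178 of a gene on the plus strand, and matches on the minus strand. A match of letters is a description of the sequence and not a shown binding site.

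The 250 bases before the start site are printed whole for HSPA5, the best-known target of the response, and for SYVN1, the member that fell under POU2AF1 knockdown and whose window held none of the 4 elements. HSPA5 lies on the minus strand of chromosome 9 (gene at 125234853 to 125241330) and its stretch at chr9:125241344-125241593. SYVN1 lies on the minus strand of chromosome 11 (gene at 65121780 to 65134533) and its stretch at chr11:65134520-65134769. Capitals mark the ERSE.
HSPA5: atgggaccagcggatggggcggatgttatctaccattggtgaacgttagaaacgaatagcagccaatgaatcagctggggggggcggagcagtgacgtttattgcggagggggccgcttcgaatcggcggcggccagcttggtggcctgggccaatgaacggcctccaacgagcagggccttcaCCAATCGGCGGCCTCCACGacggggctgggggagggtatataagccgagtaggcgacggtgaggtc
SYVN1: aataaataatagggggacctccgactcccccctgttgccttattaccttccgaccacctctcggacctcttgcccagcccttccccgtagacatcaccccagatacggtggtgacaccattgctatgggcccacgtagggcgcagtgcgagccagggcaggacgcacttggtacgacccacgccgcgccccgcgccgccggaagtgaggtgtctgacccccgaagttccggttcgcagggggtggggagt

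Among the members, HRD1 was the gene that fell when POU2AF1 was repressed in OCI-Ly7, and no member passed the test when POU2F2 was repressed. SYVN1 encodes HRD1, the ubiquitin ligase of the degradation complex. Its 4 control libraries (replicates 1, 7, 8 and 9) stood at 541, 478, 450.1 and 463 CPM. Under POU2AF1 knockdown the lowest library stood at 218 CPM, the median at 294 CPM and the highest at 355 CPM, so that all 6 lay below every control. SYVN1 fell by 0.70 ± 0.13 (SE) on the log2 scale, to 0.616 of the control level (Benjamini-Hochberg adjusted p = 0.0109 over 16001 genes, edgeR quasi-likelihood test, with a term for batch). No other member of the 37 passed the threshold of 0.05, so that 2.7% were called, where 0.887% of all genes tested were called and 0.606% were called lower. The median log2 difference of the members was -0.03, beside -0.0042 over all genes tested. In bulk RNA, fewer cells with a gene on and less RNA of it per cell cannot be told apart.

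The call of SYVN1 rests on few controls. Without control replicate 1, the only control of batch 1, the difference was -0.51 (adjusted p = 0.872, edgeR), and without knockdown replicate 5 it was -0.67 (adjusted p = 0.0627, edgeR). Within batch 1 alone it was -0.93 and within batch 2 alone -0.51, with adjusted p of 0.236 and 0.918 (edgeR). In each batch and series the knockdown libraries lay below the control of the same mark, in 6 of 6 cases. The listed germinal centre markers moved in the same libraries: their summed level was 498 to 606 TPM in the controls and 224 to 333 TPM under POU2AF1 knockdown, with none of the 6 below 1 TPM. Of these 6 genes 4 fell. BCL6, a defining factor of that cell state, fell by 1.44 on the log2 scale (adjusted p = 0.000414, edgeR). Their part in the SYVN1 result was not tested.

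SEL1L, the partner that holds HRD1 in its complex, showed the same order of libraries with a smaller difference. It stood at 132, 133, 139 and 120.5 CPM in the controls, and at 101 (lowest), 108 (median) and 113 CPM (highest) under POU2AF1 knockdown. No knockdown library reached the lowest control. The difference was -0.29 ± 0.10 and did not pass the test (adjusted p = 0.376, edgeR). SYVN1 and SEL1L were the only members of the 37 (5.41%) whose 6 knockdown libraries all lay below the 4 controls, as did 1.69% of all genes tested. No member had all 6 above them, as 1.21% of all genes did.

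Against the control of the same batch or series mark, 13 members (35.1%) had all 6 POU2AF1 knockdown libraries lower, where 12.1% of all genes did, and 1 member, EDEM1, had all 6 higher, where 9.86% did. The knockdown libraries of batch 1 share a single control in this count. The 13 were HSPA5, CALR, DNAJB11, DNAJC3 and SDF2L1 among the chaperones and partners, PDIA4 in oxidative folding, SYVN1, SEL1L, HERPUD1, DERL1 and DERL2 in degradation, SEC61B in translocation and CREB3L2 among the sensors.

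The antibody heavy chain, a main client of this pathway in B cells, moved in the same libraries. IGHM stood at 4384 to 5544 TPM in the OCI-Ly7 controls and at 1435 to 3250 TPM under POU2AF1 knockdown. It fell by 0.90 ± 0.14 on the log2 scale (adjusted p = 0.00294, edgeR). Beside that, HSPA5 differed by -0.22 ± 0.47 and HSP90B1 by 0.26 ± 0.27, and neither passed the test (both adjusted p = 1.0, edgeR). With series blocks HSPA5 stood at -0.42 ± 0.14 (adjusted p = 0.12, edgeR).

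**Figure D1:**
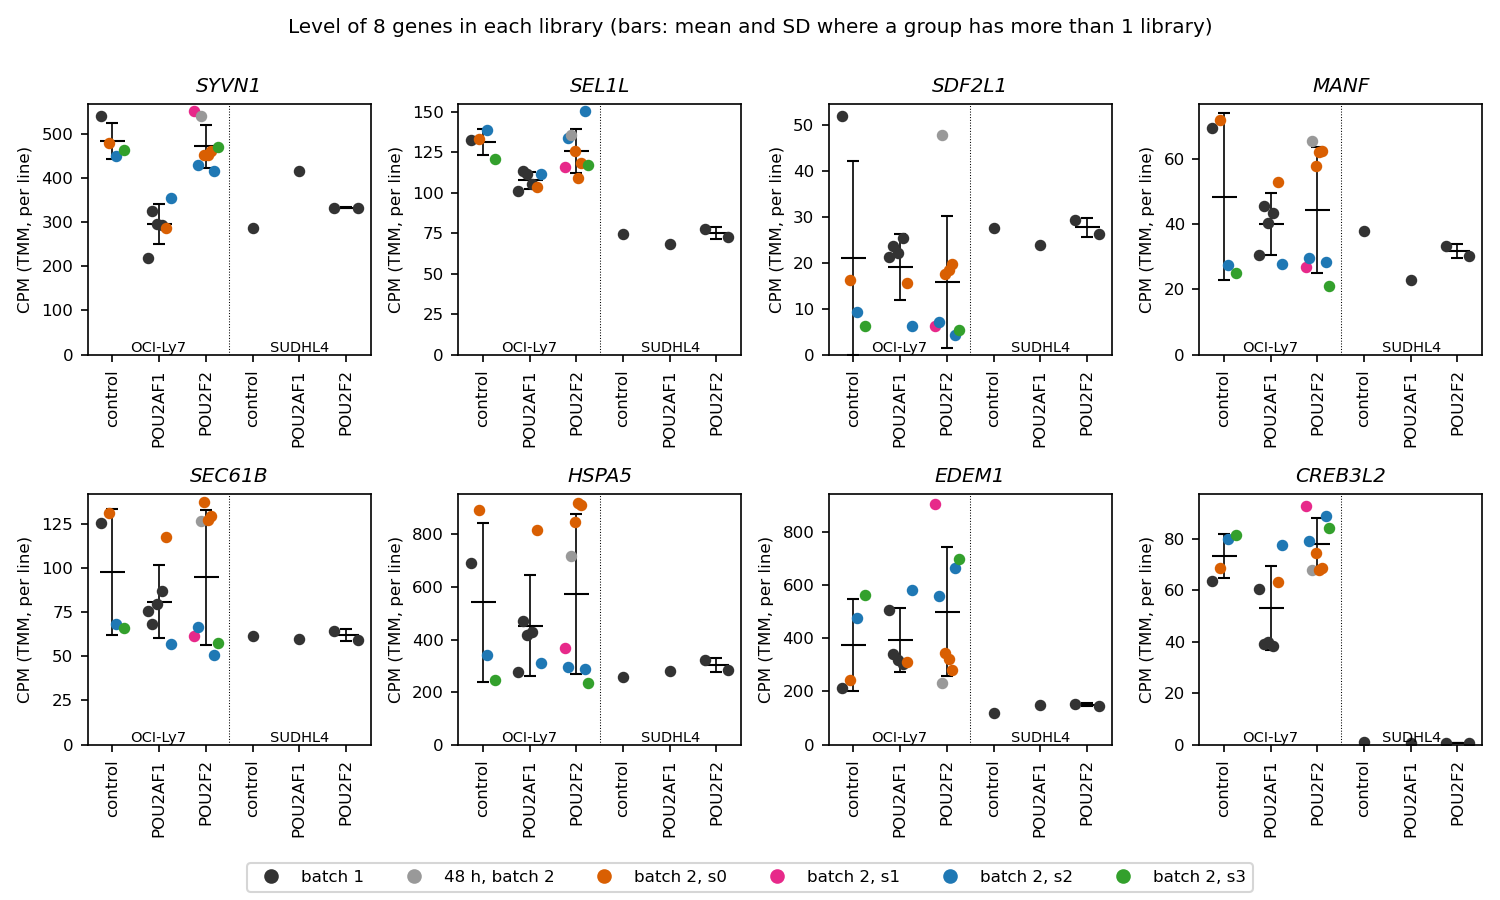
CPM (vertical axis, linear from 0) of 8 members in each library, grouped by line and knockdown, with points coloured by batch or series mark and bars for the mean and SD of groups of more than 1 library. SYVN1 and SEL1L lie lower in all 6 POU2AF1 knockdown libraries of OCI-Ly7 than in its controls, HSPA5, MANF and SEC61B split by series mark within each group, and CREB3L2 lies near 0 in SUDHL4.

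The controls of OCI-Ly7 differ widely among themselves for many members. Each control stood in a batch or series of its own, so differences between controls and between batches or series cannot be told apart. A further fit took the series mark and batch 1 as blocks. This fit left a smaller spread between libraries (biological coefficient of variation 0.146, against 0.297 with batch alone). In it 6 members were lower under POU2AF1 knockdown and none higher, or 16.2% of the members, where 5.59% of all genes were called and 3.09% were called lower. The members' median was -0.12. The 6 were SYVN1 (-0.70, adjusted p = 0.00144), SEL1L (-0.32, adjusted p = 0.0113), SDF2L1 (-0.74, adjusted p = 0.0201), SEC61B (-0.43, adjusted p = 0.0216), MANF (-0.50, adjusted p = 0.0274) and PDIA4, all by edgeR. SDF2L1, SEC61B and PDIA4 are named here because of these values.

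SDF2L1, a partner of BiP and its J proteins, was higher in the batch 1 control than in the other controls. The controls stood at 51.9, 16.2, 9.36 and 6.28 CPM in replicates 1, 7, 8 and 9, and the knockdown libraries at 6.17 (lowest), 21.7 (median) and 25.4 CPM (highest). It is 1 of the 13 members whose knockdown libraries all lay below the control of their own mark. Over all libraries the groups overlap.

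SEC61B, a small subunit of the channel, stood at 126, 132, 68.4 and 66.0 CPM in the controls and at 56.8, 77.8 and 118 CPM (lowest, median, highest) in the knockdown libraries. It too is 1 of those 13. MANF, a secreted stress-induced partner of BiP, stood at 69.5, 72.0, 27.6 and 24.9 CPM in the controls and at 27.7, 41.9 and 52.8 CPM in the knockdown libraries. Its knockdown libraries lay below the matching control in 5 of 6 cases and above it in 1.

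Batch by batch the values of SDF2L1, SEC61B and MANF were unequal, and that inequality was not tested. In batch 1 alone the differences were -1.16, -0.68 and -0.79, against a single control library, and in batch 2 alone they were 0.05, -0.00 and -0.02. The fit of batch 2 alone had no term for the series mark. Its controls included a library marked s3, and its POU2AF1 knockdown libraries were marked s0 and s2 only. These values therefore do not compare libraries of the same mark. Without control replicate 1 the fit with series blocks called 1 member lower (PDIA4) and 1 higher (HSP90B1, 0.44). In that fit 166 of 16331 genes were called, against 894 of 16001 with all libraries. SYVN1 then stood at -0.50 (adjusted p = 0.165, edgeR). Without knockdown replicate 1, the library with the high mitochondrial share, the fit with series blocks called 8 lower and 1 higher. Over all genes that fit called 1692 of 15956, of which 947 were lower. HSPA5 was among those 8, at -0.35 (adjusted p = 0.0167, edgeR).

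PDIA4, a large disulfide isomerase, had a log2 difference of -1.11 (adjusted p = 0.000116, edgeR) in this fit, but its sum covers only part of the reads around the gene. The sums count transcripts listed in GENCODE release 29, and in the files 1 transcript that this release does not list stands next to those of PDIA4. That transcript held 257% to 2450% of the reads of PDIA4's own listed transcripts. A lower PDIA4 level and a shift of reads between transcripts therefore cannot be told apart, and the value is given for the listed transcripts only. The same caution holds in smaller measure for HYOU1 (49.6% to 95.7%), MANF (10.6% to 86.8%) and DNAJC3 (0% to 26.8%), and for the other 33 members the share was below 5% in every file.

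**Figure D2:**
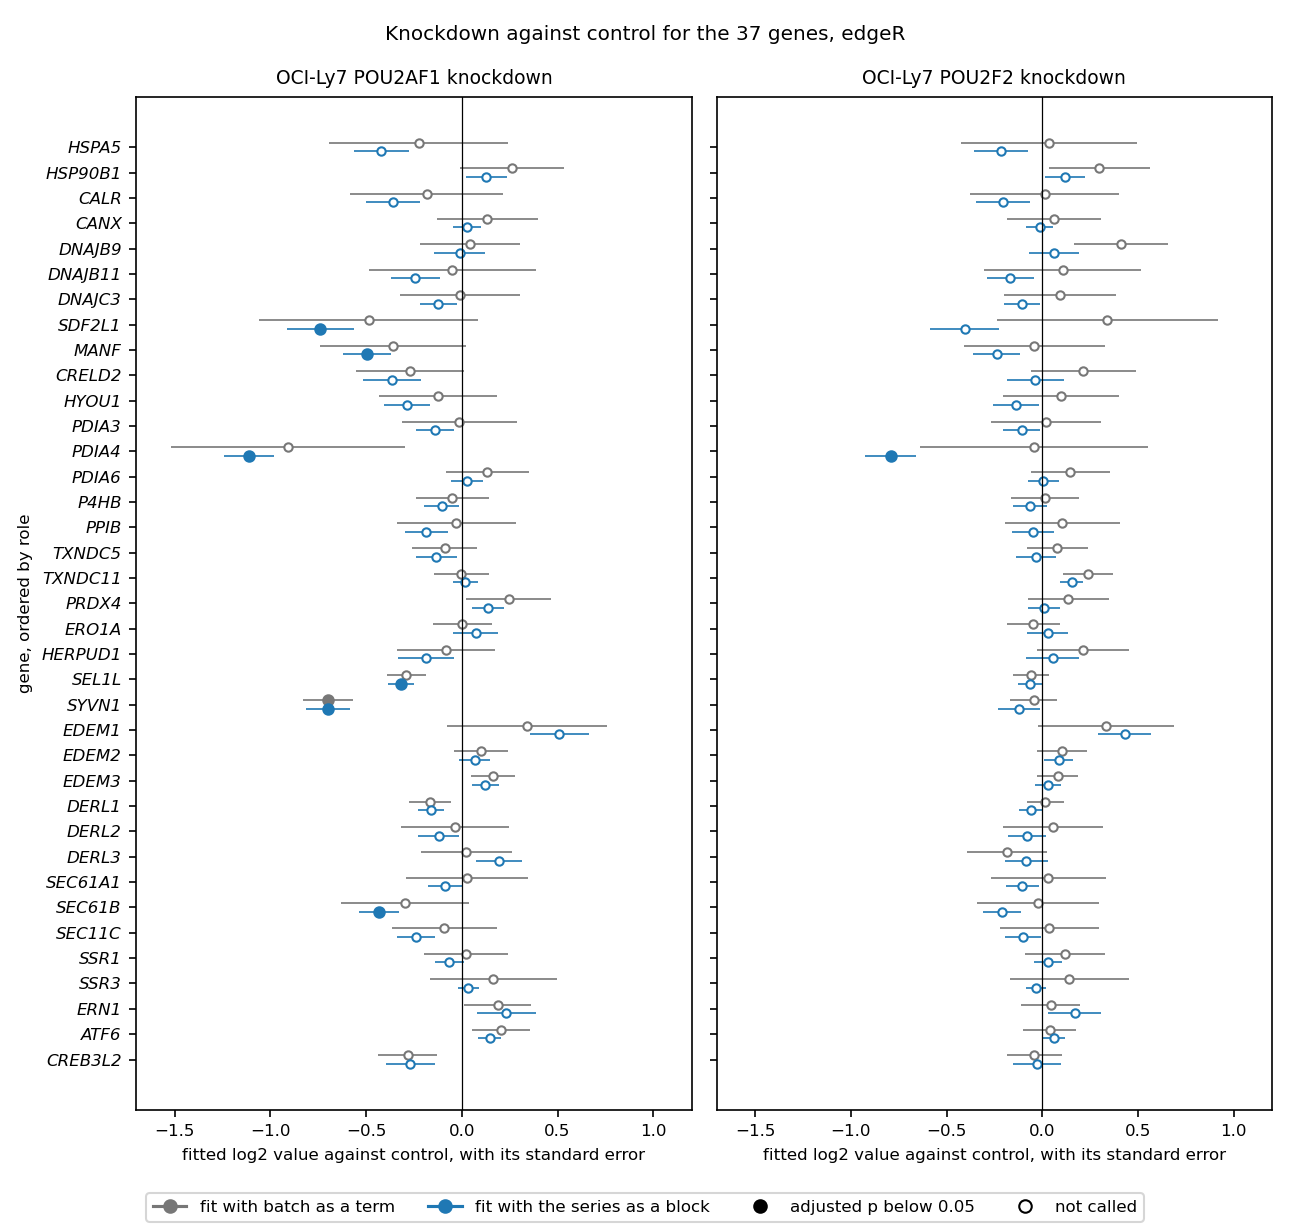
Fitted log2 value against control with its standard error (horizontal axis) for the 37 members (vertical axis, ordered by role) in OCI-Ly7, for POU2AF1 knockdown at left and POU2F2 knockdown at right, grey with batch as a term and blue with series blocks. Filled points passed an adjusted p of 0.05: SYVN1 in both fits and 5 further members in the block fit at left, and PDIA4 in the block fit at right.

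By role, the 11 chaperones and partners held 0 calls with batch as a term, with differences from -0.49 to 0.26. The 9 oxidative folding genes held 0 calls, from -0.91 to 0.24, the 5 translocation genes 0, from -0.30 to 0.16, and the 3 sensors 0, from -0.28 to 0.21. SYVN1 was the 1 call among the 9 degradation genes, whose differences ran from -0.70 to 0.34. CREB3L2, a membrane-bound factor that is cut and released from the organelle, stood at 63.5, 68.6, 79.8 and 81.3 CPM in the controls and at 38.5, 50.1 and 77.5 CPM in the knockdown libraries. Its difference of -0.28 ± 0.15 did not pass the test (adjusted p = 0.973, edgeR).

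For POU2F2 knockdown in OCI-Ly7, 0 of 37 members were called by edgeR, where 0% of all genes were. At an unadjusted p under 0.05 the count was 0 members and 283 of 16001 genes, and DESeq2 called 5 genes and 0 members. The members' median difference was 0.06, with 29 above and 8 below 0, beside 0.00 over all genes. With series blocks it turned to -0.05, with 13 above and 24 below 0, beside -0.01 over all genes. The s1 and 48 h blocks each held 1 library, of POU2F2 knockdown, and so did not bear on the block fit's difference. SYVN1 stood at 415 (lowest), 457 (median) and 551 CPM (highest) over the 8 libraries, across the range of the controls. With series blocks PDIA4 alone was called, on its listed transcripts (-0.79, adjusted p = 0.0378, edgeR), where 0.0812% of genes were and 0.0312% were called lower. The comparisons of both knockdowns share the same control libraries.

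The 2 members with the smallest unadjusted p here were TXNDC11 and DNAJB9. TXNDC11, a disulfide reductase of the degradation pathway, stood at 70.1, 78.8, 72.9 and 79.9 CPM in the controls and at 71.4, 90.6 and 126 CPM (lowest, median, highest) under POU2F2 knockdown. DNAJB9 (ERdj4), a J protein that recruits BiP to IRE1, stood at 9.19, 4.85, 4.73 and 4.85 CPM in the controls and at 4.71, 5.69 and 11.5 CPM under POU2F2 knockdown. Neither difference passed the test: 0.24 ± 0.13 and 0.41 ± 0.25, both with an adjusted p of 1.0 (edgeR). The groups overlap for both genes. DNAJB9 under POU2AF1 knockdown stood at 3.93, 8.0 and 8.42 CPM, with a difference of 0.04 ± 0.26.

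The genes of the pathway outside the 37 were read from 6 lists: 16 genes of the unfolded protein response, 20 of the translocon and signal peptidase, 16 of N-glycosylation, 19 of degradation, 25 of folding and 23 of transport out of the organelle. With batch as a term none was called in OCI-Ly7 for either knockdown, among 15, 20, 14, 18, 21 and 21 tested (edgeR). With series blocks, POU2AF1 knockdown gave 8 calls among the 109 genes tested in these lists, or 7.34%, near the 5.59% of all genes: lower UBE2J1 (-0.44), SEC24D (-0.57), ERP44 (-0.41), DNAJC10 (-0.36) and SRP68 (-0.34), and higher ERP29 (0.71), TMX4 (0.67) and SEC11A (0.33). UBE2J1 is the ubiquitin-conjugating enzyme that works with HRD1 (adjusted p = 0.00438, edgeR). XBP1 did not pass the test under POU2AF1 knockdown (-0.07 ± 0.27) or POU2F2 knockdown (0.23 ± 0.27), nor did ATF4 (0.13 and 0.08), DDIT3 (0.02 and 0.42) or EIF2AK3 (0.13 and 0.16). The share of XBP1 coding transcripts assigned to the models that lack the 26 bases IRE1 removes ranged from 13.5% to 42.8% over the controls, from 16.8% to 47.4% under POU2AF1 knockdown and from 14.0% to 61.1% under POU2F2 knockdown.

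Among the OCI-Ly7 libraries of batch 2 the summed level of the 37 genes separated by series mark, whichever guide the cells carried. The members' levels summed to 5282 to 5894 TPM in the 5 libraries marked s0, which include control, POU2AF1 and POU2F2 knockdown. In the 4 libraries marked s2, which include the same 3 groups, they summed to 3519 to 3758 TPM. The marks do not overlap. The 2 libraries marked s3 stood at 3317 and 3346 TPM, the s1 library at 3652 TPM, the 48 h library of POU2F2 knockdown at 5920 TPM and the batch 1 control at 5698 TPM. By guide, the sums were 4503 ± 1163 TPM (SD, n = 4) in controls, 4228 ± 1039 TPM (n = 6) under POU2AF1 knockdown and 4711 ± 1253 TPM (n = 8) under POU2F2 knockdown. These means differ by less than the spread within each group.

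**Figure D3:**
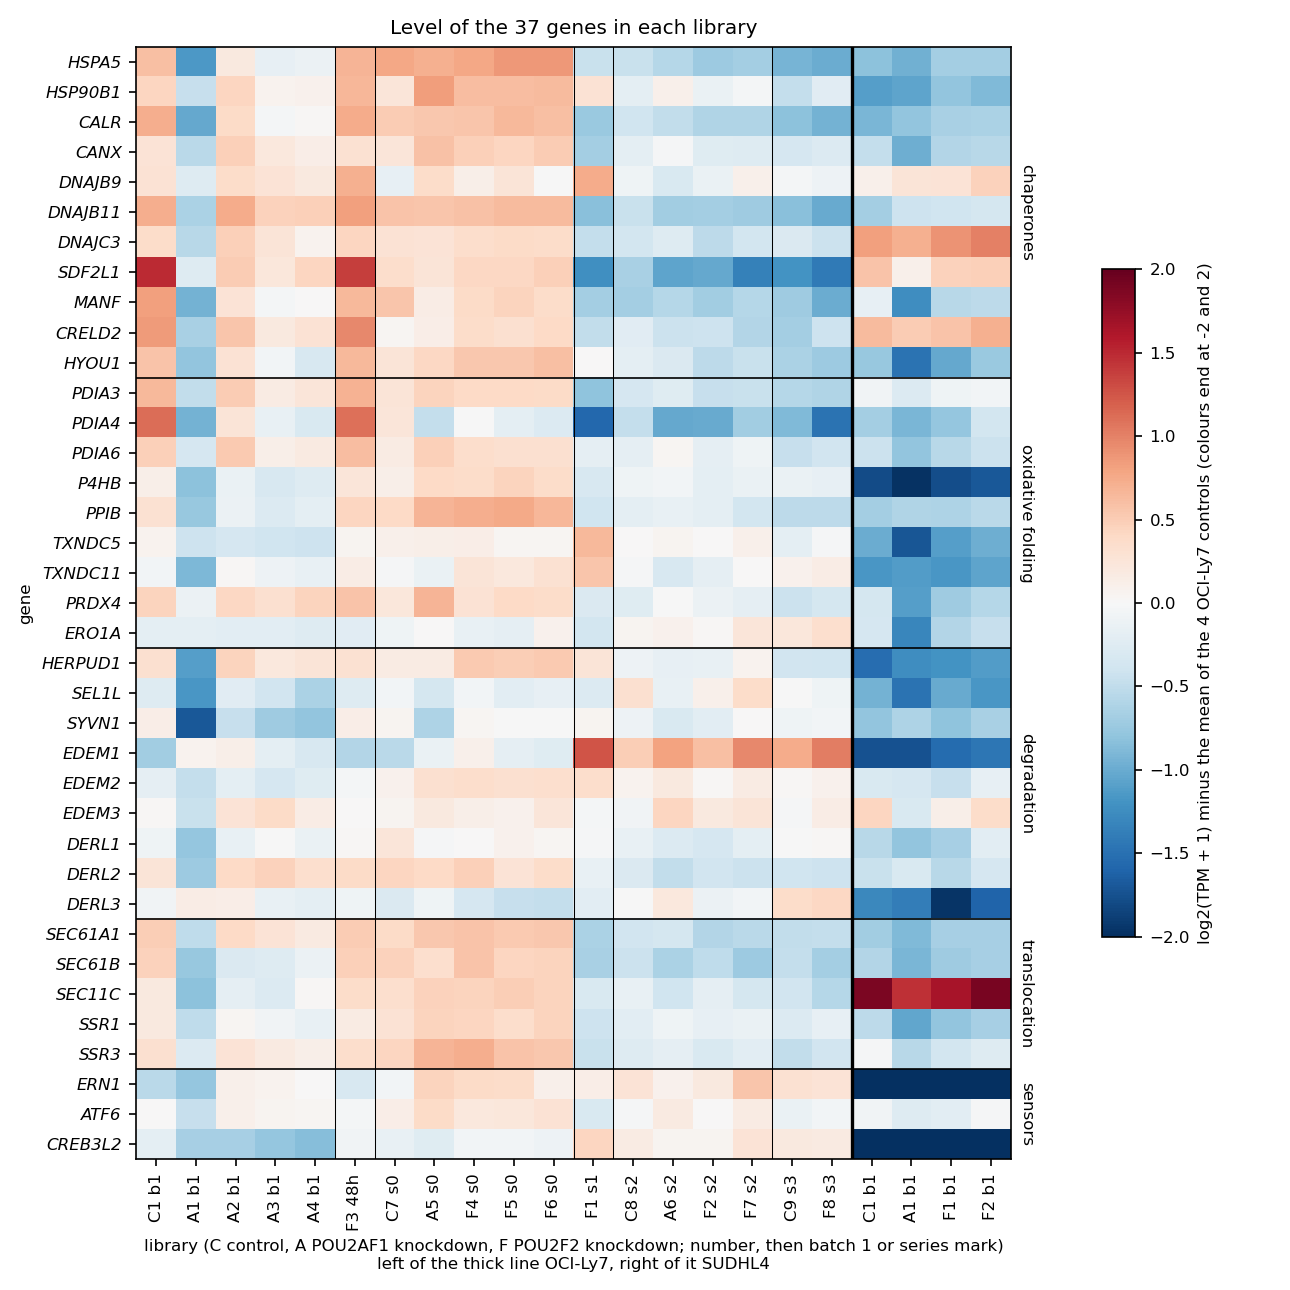
Level of the 37 members (rows, by role) in each of the 22 libraries (columns), as log2(TPM + 1) minus the mean of the 4 OCI-Ly7 controls, red higher and blue lower, with colours ending at -2 and 2. The columns marked s0, 48 h and the batch 1 control are red for most chaperone and translocation genes, those marked s1, s2 and s3 are blue, and EDEM1 runs the other way.

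Libraries marked s2 were compared with those marked s0 in the same model, with the guide as a term. This comparison was chosen after the levels had been seen. Of the 37 members, 29 were lower in s2 and 3 higher, or 86.5%, where 52% of all genes were called and 26.9% were called lower (edgeR). The members' median was -0.65, beside 0.01 over all genes. By role, 11 of 11 chaperones and partners, 5 of 5 translocation genes and 7 of 9 oxidative folding genes were lower. Of the 9 degradation genes 5 were lower and 3 higher, and of the 3 sensors 1 was lower, ATF6.

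HSPA5, the chaperone BiP, stood at 237, 266, 113 and 81.0 TPM in OCI-Ly7 controls 1, 7, 8 and 9. Under POU2AF1 knockdown it stood at 69.1, 141 and 254 TPM (lowest, median, highest) and under POU2F2 knockdown at 77.2, 182 and 284 TPM, so both knockdown groups overlap the controls over most of their range. All 6 POU2AF1 knockdown libraries lay below the HSPA5 level of the control of their own mark. Sorted by mark, the s0 libraries held 254 to 284 TPM and the s2 libraries 93.7 to 113 TPM. The level in s2 was 0.351 of that in s0 (log2 -1.51 ± 0.15, adjusted p = 1.93e-06, edgeR).

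Other chaperones were lower in the same comparison, and those named here and in the next paragraphs were chosen after their values had been seen. DNAJB11 (ERdj3), a secreted J protein partner of BiP, held 131 to 139 TPM in s0 and 54.1 to 65.4 TPM in s2 (log2 -1.31). CALR, the lectin chaperone calreticulin, held 739 to 813 and 342 to 393 TPM (log2 -1.17). HSP90B1, the chaperone GRP94, was lower by a smaller amount (log2 -0.82, adjusted p = 1.47e-05, edgeR). Across the OCI-Ly7 controls, HSP90B1 stood at 282, 248, 182 and 151 TPM. The batch 1 control and s0 control were the higher of the 4 for both HSPA5 and HSP90B1.

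In translocation, SEC61A1, the pore subunit of the channel, held 121 to 137 TPM in s0 and 60.9 to 71.6 TPM in s2 (log2 -1.06). SSR3, a subunit of the translocon-associated complex, held 134 to 165 and 80.0 to 87.4 TPM (log2 -1.05 ± 0.05, adjusted p = 2.3e-08, edgeR), the smallest p of the members. In each of these the s0 and s2 libraries do not overlap. HERPUD1, a stress-induced scaffold of the degradation complex, was lower at log2 -0.70 (adjusted p = 0.000753, edgeR). Its controls stood at 199.8, 198, 127 and 110.5 CPM, in the order batch 1, s0, s2 and s3.

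EDEM1, which trims glycans of misfolded proteins and hands them to the degradation complex, ran opposite to its neighbours. It held 69.8 to 109 TPM in s0 and 144 to 199 TPM in s2 (log2 0.94 ± 0.14, adjusted p = 5.63e-05, edgeR). DERL3 (log2 0.45) and SEL1L (log2 0.19) were the other two members higher in s2. SYVN1 was at the same level under both marks (log2 0.00 ± 0.11, adjusted p = 0.999, edgeR). ERN1, TXNDC5, CREB3L2 and ERO1A also did not pass the test. ERO1A, the oxidase that recharges disulfide isomerases, stood at 76.9, 66.5, 77.1 and 88.8 CPM in the controls.

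The libraries that this comparison left out can be set beside it. Of the 29 members lower in s2, both s3 libraries lay below every s0 library for 27, the exceptions being DERL1 and TXNDC11, and the s1 library did so for 25. The 48 h library of POU2F2 knockdown did so for 11. For SDF2L1 that library held 93.0 TPM and the batch 1 control 100.4 TPM, above the 42.2 to 49.2 TPM of the s0 libraries. In the other lists, s2 was lower for 19 of 20 translocon genes, 14 of 21 transport genes, 13 of 18 degradation genes, 10 of 14 glycosylation genes and 7 of 21 folding genes, where 26.9% of all genes were lower. In the same lists 3 degradation genes, 2 folding genes and 1 glycosylation gene were higher. Of the 15 unfolded protein response genes tested, 6 were higher and 3 lower. Over all 16001 genes tested, 4028 were higher and 4299 lower. DDIT3 (CHOP), a stress-induced factor downstream of PERK, was higher in s2 by 0.70 (adjusted p = 0.00354, edgeR), and so was EIF2AK3 (PERK itself) by 0.51 (adjusted p = 9.29e-05, edgeR). XBP1 did not pass (-0.51, adjusted p = 0.111, edgeR).

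All 9 members with an ERSE or ERSE-II in their window were lower in s2, with a median of -0.82 and a range from -1.51 to -0.54. Of the 25 members with a window and neither element, 18 were lower and 2 higher, with a median of -0.57. Several of the lowest, such as DNAJB11, MANF and SEC61B, carry neither set of letters in the window searched.

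The members of SUDHL4 summed to 2798 TPM in the control, 2439 TPM under POU2AF1 knockdown, and 2760 and 2923 TPM under POU2F2 knockdown. The SUDHL4 control held 0.491 of the sum of the OCI-Ly7 control of the same batch. That control, at 5698 TPM, had the highest sum of the 4 OCI-Ly7 controls, and the lowest stood at 3317 TPM.

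The SUDHL4 knockdowns have no replicated control, and the spread in the fit of that line rests on the pair of POU2F2 knockdown libraries. For POU2AF1 knockdown that fit called 7 members higher and 7 lower, or 37.8%, where 36.8% of all genes were called, so the members' share was near the background. In a fit of all libraries of both lines, 0 members were called, where 1.66% of all genes were, and 2 had an unadjusted p under 0.05 (edgeR). The values below compare 1 knockdown library with 1 control library and are given with no p. The B cell markers moved in the same library: their summed level was 1891 TPM in the control and 3626 TPM under POU2AF1 knockdown, with all 6 higher in the fit of the line and none below 1 TPM. The germinal centre markers summed to 853 and 501 TPM, with 3 of 6 lower and 1 higher. Their part in the members' values was not tested.

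ERO1A stood at 67.7 CPM in the control and 41.5 CPM under POU2AF1 knockdown (log2 -0.71). MANF stood at 37.9 and 22.9 CPM (log2 -0.73). EDEM3, PRDX4, TXNDC5, HYOU1 and SSR3 were the other members called lower in the fit of the line, at -0.62 to -0.26. SYVN1 stood at 286 and 415 CPM (log2 0.54), and in the fit of all libraries its difference of 0.52 did not pass the test (adjusted p = 0.457, edgeR). DNAJB11, HERPUD1, DERL2, CALR, EDEM1 and PPIB were the other members called higher in the fit of the line, at 0.51 to 0.29.

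The difference between the lines in the response to POU2AF1 knockdown was itself tested. For SYVN1 it was 1.22 ± 0.30 on the log2 scale and did not pass (adjusted p = 0.06, edgeR), and 0 of the 37 members did, where 0.798% of all genes were called. With series blocks it was 1.22 with an adjusted p of 0.00507 (edgeR), one of 2 members higher and 3 lower where 10.3% of all genes were called. PDIA4 was the other higher member, with the caution given above, and EDEM3 (-0.75), PRDX4 (-0.64) and ERO1A (-0.79) were the lower ones. The SUDHL4 side of each is the single library on either side.

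POU2F2 knockdown in SUDHL4 gave 4 members higher and 0 lower in the fit of that line, or 10.8%, where 7.35% of all genes were called and 4.79% were called higher. They were DNAJB11, from 65.6 CPM in the control to 87.7 and 82.8 CPM (log2 0.38 ± 0.09, adjusted p = 0.00628, edgeR), and HERPUD1, from 57.5 to 77.0 and 70.9 CPM (log2 0.36 ± 0.09, adjusted p = 0.0101, edgeR), with EDEM1 (0.33) and CALR (0.36). Both knockdown libraries lay above the control for these genes, which were picked by their calls in the same libraries. None was called in the fit of all libraries, where 0.0951% of genes were. Between the lines, 0 members differed in their response to POU2F2 knockdown, where 0.0106% of all genes did (0.222% with series blocks, again with 0 members). XBP1 stood at 2.60 TPM in the SUDHL4 control, at 7.60 TPM under POU2AF1 knockdown and at 5.85 and 5.69 TPM under POU2F2 knockdown. XBP1 did not pass the test when both lines were fitted together (adjusted p = 0.176 and 1.0, edgeR). In the fit of the line, 6 of the 15 unfolded protein response genes tested, XBP1 among them, were called higher and 6 lower under POU2AF1 knockdown, and 1 higher (XBP1) and 2 lower under POU2F2 knockdown, beside the 36.8% and 7.35% of all genes.

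The controls of both lines were also compared. With 1 SUDHL4 library, 7 members were lower there and 2 higher, or 24.3%, where 23.5% of all genes were called (edgeR), again near the background. The members' median was -0.58, beside -0.07 over all genes. With series blocks 24 were lower and 3 higher, or 73%, where 44.5% of all genes were called, with a median of -0.59 beside -0.06. The lines also differ in medium, and line and medium cannot be told apart. CREB3L2 stood at 11.9, 12.4, 15.6 and 16.0 TPM in the OCI-Ly7 controls and at 0.220 TPM in the SUDHL4 control (log2 -5.94 ± 0.39, adjusted p = 1.52e-09, edgeR). Every SUDHL4 library lay far below every OCI-Ly7 library for this gene.

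ERN1, the sensor IRE1, stood at 6.72, 9.78, 12.5 and 12.8 TPM in the OCI-Ly7 controls and at 1.03 TPM in SUDHL4 (log2 -2.62 ± 0.34, adjusted p = 8.73e-06, edgeR). ATF6, another sensor, did not pass the test (0.27 ± 0.26, adjusted p = 0.503, edgeR). SEC11C, a catalytic subunit of signal peptidase, went the other way, at 66.7, 73.9, 52.3 and 44.2 TPM in OCI-Ly7 and 217 TPM in SUDHL4 (log2 2.10 ± 0.44, adjusted p = 0.00138, edgeR). All 4 SUDHL4 libraries, at 162 to 219 TPM, lay above every OCI-Ly7 library. These genes are named for their values. P4HB (-1.42), DERL3 (-1.55), HERPUD1 (-1.53), TXNDC11 (-0.81) and SEL1L (-0.68) were lower in SUDHL4 as well and EDEM3 (0.67) higher.

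XBP1, the factor that IRE1 activates, was lower in the SUDHL4 control too, at 2.60 TPM against 93.3 to 122 TPM (log2 -4.57, adjusted p = 2.25e-05, edgeR). So was IGHM, at 17.2 TPM against 4384 to 5544 TPM. PRDM1 and IRF4, factors of the plasma cell state, were below 1 TPM in every SUDHL4 library. SDC1, a plasma cell marker, was below 1 TPM in all libraries of both lines. These 3 were the only ones of the 7 listed plasma cell markers below 1 TPM in SUDHL4. The 7 together summed to 917 TPM in the SUDHL4 control and to 1482 to 1890 TPM in the OCI-Ly7 controls. The part of these in the members' levels was not tested.

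**Figure D4:**
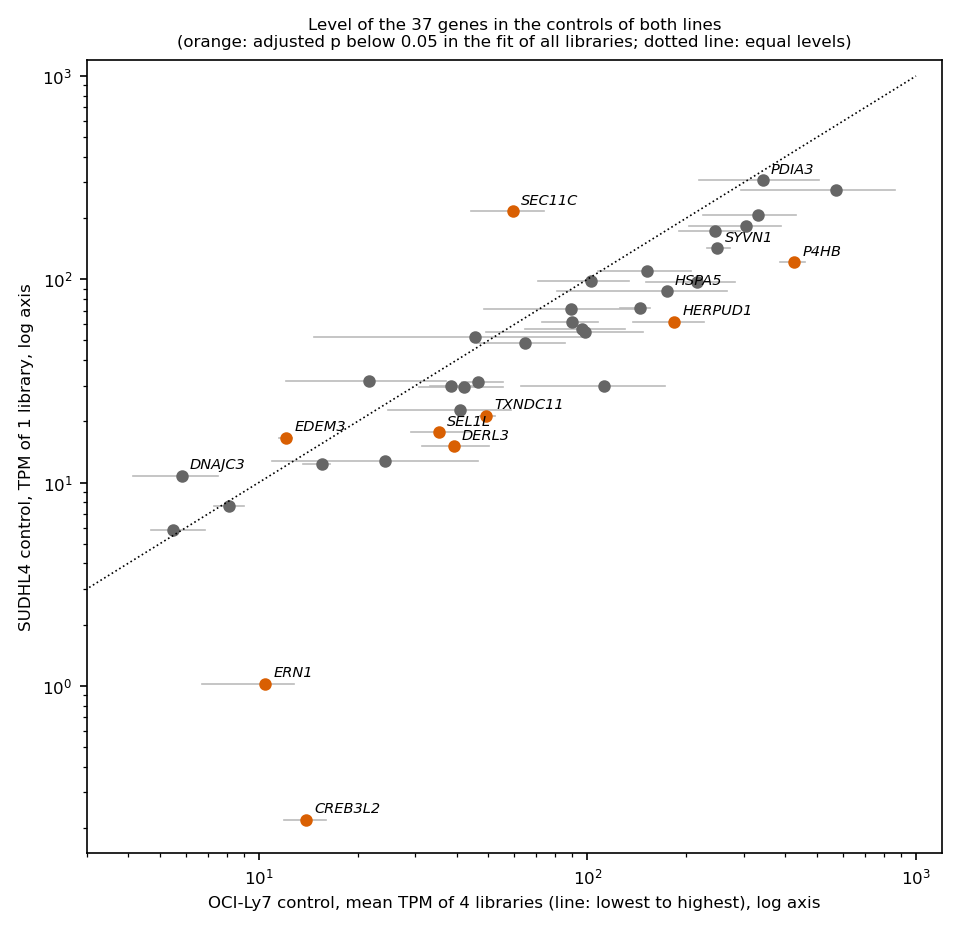
TPM of the 37 members in the OCI-Ly7 controls (horizontal axis, log scale, mean of 4 libraries with a line from the lowest to the highest) and in the SUDHL4 control (vertical axis, log scale, 1 library), orange where the adjusted p was below 0.05. CREB3L2 and ERN1 lie far under the dotted line of equal levels and SEC11C above it.

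Per length, CALR (572 ± 272 TPM, SD, n = 4) was the most abundant member in the OCI-Ly7 controls, followed by P4HB (426 ± 38.5 TPM), PDIA3 (341 ± 132 TPM), SEC61B (330 TPM), PPIB (303 TPM) and SYVN1 (248 ± 19.8 TPM). The order of CALR, P4HB and PDIA3 does not hold beyond the spread. The least abundant were ATF6 (8.11 TPM), DNAJC3 (5.83 TPM) and DNAJB9 (5.48 ± 0.94 TPM). In the SUDHL4 control PDIA3 (308 TPM), CALR (276 TPM), SEC11C (217 TPM) and SEC61B (208 TPM) led, and CREB3L2 (0.220 TPM) was last. Of the PDIA3 level, 70.4% in OCI-Ly7 and 58.0% in SUDHL4 was assigned to a transcript model annotated for nonsense-mediated decay, and 3.80% and 4.74% to coding models, so its place in the order is that of the summed transcripts and not of coding RNA. In the median member 89.5% of the level in OCI-Ly7 and 89.9% in SUDHL4 lay on coding models. P4HB and SYVN1 had lower coding shares in the OCI-Ly7 controls, at 62.7% (267 TPM) and 64.8% (161 TPM). On coding models SEC61B (325 TPM) and PPIB (300 TPM) stood above P4HB there.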

How the data were processed

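The members and the other gene lists were chosen with earlier results of these data known. RNA was extracted with Trizol and made into stranded, paired-end mRNA libraries, per the labels' protocols. The submitters' processing notes name fastp (no version given), Salmon 1.5.1 and the build GRCh38.p13. The authors deposited an estimated count and a TPM value for each of 227912 transcripts in 26 files. Transcripts listed in GENCODE release 29 (205964) were summed to 58592 genes, and estimated counts were rounded. Files that agreed within sampling noise (3 pairs, median chi-square ratio 1.12 to 1.15, against 2.39 to 70.4 for the other pairs) were merged. A control file that equalled the sum of its partners was left out, which gave 22 libraries in all.

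Counts were tested with edgeR 4.0.16 (quasi-likelihood, TMM, filterByExpr with a minimum count of 10, R 4.3.3) and Benjamini-Hochberg adjustment over all genes tested, with a threshold of 0.05. OCI-Ly7 was fitted with batch as a term, SUDHL4 on its own, and comparisons of lines over all libraries. The alternatives were RLE normalisation, no count filter, DESeq2 1.42.0, limma 3.58.1 on log2(TPM + 1), unmerged files, series or replicate blocks, each batch alone, and leaving out libraries. The labels do not say that replicates came from separate cultures, so the p-values reflect only how far these libraries vary, which may be technical. Replicate numbers did not pair the samples. The members given in more detail were those called in OCI-Ly7, those called in SUDHL4 in both fits, and HSPA5, HSP90B1 and DNAJB9. To these came the 2 members with the smallest p in each knockdown comparison. Their values stand by library for some groups only. Knockdown groups of OCI-Ly7, where given, stand mostly as lowest, median and highest. Other members named in full were chosen after their values were seen.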

Additional observations from a re-analysis of the deposited data

Results flagged for a closer look

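In 6 of 30 groups examined, the highest or lowest library stood apart from the rest of its group by Dixon's 95% criterion, where chance gives about 1 in 20. DNAJB9 stood at 9.19 CPM in OCI-Ly7 control replicate 1, against 4.73 to 4.85 CPM in the other controls, and at 3.93 CPM in POU2AF1 knockdown replicate 6, against 7.08 to 8.42 CPM. ERO1A stood at 107 CPM in POU2AF1 knockdown replicate 1, the library with the high mitochondrial share, against 69.4 to 77.1 CPM. HSP90B1 stood at 741 CPM and HSPA5 at 818 CPM in POU2AF1 knockdown replicate 5, the only library of that group marked s0, against 376 to 462 CPM and 278 to 469 CPM. TXNDC11 stood at 126 CPM in POU2F2 knockdown replicate 1, the only library marked s1, against 71.4 to 94.4 CPM.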

How the results depend on the processing

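For POU2AF1 knockdown in OCI-Ly7 the 1 call became 0 with limma on TPM, with a replicate block, and in batch 1 or batch 2 alone, 2 with files not merged, 6 with series blocks and 7 with series blocks that place POU2F2 knockdown replicate 3 in batch 1. Leaving out 1 library gave 0 to 1 calls, with 0 without control replicate 1 or knockdown replicate 5. With series blocks the count was 9 without knockdown replicate 1, 2 without control replicate 1, and 5 without control replicate 7, 8 or 9. Over all genes, 142 calls became 894 with series blocks, 327 with DESeq2, 572 with files not merged and 273 with the replicate block. With series blocks they numbered 1692 without knockdown replicate 1 and 166 without control replicate 1. Without control replicate 7, 8 or 9 they numbered 719, 856 and 740. For POU2F2 knockdown the 0 calls became 1 with series blocks, 2 without POU2AF1 knockdown replicate 1 and 1 without control replicate 8 in that fit, and leaving out 1 library from the fit with batch gave 0. Over all genes the fits with series blocks called 13, 135 and 18, in the same order. In SUDHL4 the 14 calls of POU2AF1 knockdown became 9 with limma, 28 with files not merged and 0 in the fit of all libraries, and the 4 of POU2F2 knockdown became 1 with DESeq2, 0 with limma, 14 with files not merged and 0 in the fit of all libraries. Leaving out either POU2F2 knockdown library there gave 0, in the fit of all libraries, where a lone sample is assumed to vary like the other groups. The 0 calls of the difference between lines after POU2AF1 knockdown became 2 with DESeq2, 3 with files not merged and 5 with series blocks, with 0 on leaving out a library. The 9 of the control comparison became 16 with files not merged and 27 with series blocks, and 6 to 9 on leaving out a library. The 32 between series marks became 29 to 32. In SUDHL4 and between the lines, calls over all genes rose or fell with the members' calls in each fit above that kept all libraries. With files not merged they reached 8896 of 15035 genes for POU2AF1 knockdown in SUDHL4 and 3761 for POU2F2 knockdown. In that setting 8123 of 17758 genes were called between the controls, and 1816 between the lines' responses to POU2AF1 knockdown. Between series marks, 6083 to 8367 genes were called over the alternatives. The cause of these shifts was not tested. RLE normalisation and no count filter left every count of members within 1.5 times. Of the alternatives for single named members, 670 kept their direction and call, 23 gained a call and 35 lost one; 102 changed sign, of which 0 were called under either setting. Replicate numbers do not pair the samples: deviations of same-numbered libraries correlated at -0.37 to 0.51 (median 0.03, n = 10), those of the same series or batch 1 at a median of 0.49 (n = 17). Pairs that shared neither ran from -0.70 to 0.78 (median -0.21, n = 79). The highest of these joined the batch 1 control and the 48 h library of POU2F2 knockdown, which is labelled batch 2. With the replicate block SYVN1 stood at -0.86 (adjusted p = 0.0602, edgeR).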
